A study of Mus musculus with 6 samples.

Results

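The enzymes that carry glucose carbon from the cell surface to the end of the citric acid cycle were examined in motor neurons of the mouse brainstem, as 33 genes for glucose and lactate carriers, the steps of glycolysis, lactate dehydrogenase, the pyruvate dehydrogenase complex and the cycle itself. The genes were listed by name, and every probe set that the platform annotation assigns to exactly 1 of those symbols was taken, which gave 77 of the 45101 probe sets on the array for 31 genes. No probe set was assigned to Eno1 or Gpi1 alone, and these 2 genes are not analysed here. Another 4 probe sets name a listed gene together with other genes and were left out. The 3 probe sets of Gapdh are hybridisation controls of the array, so they are given as values and were not tested. Of the other 74, 67 passed the filter on low signal, for 30 genes.

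RNA came from 6 samples of brainstem motor neurons, 3 of wild-type mice (WT) and 3 of SOD1 mice; SOD1 encodes a copper-zinc superoxide dismutase that is mutated in some families with amyotrophic lateral sclerosis. The labels name neither the SOD1 allele and its promoter nor the animals' age and sex or how the motor neurons were collected. All 6 samples went through RNA amplification in 2 rounds before hybridisation. Since no label ties the 3 samples of a genotype to different animals, a p-value here reflects sample-to-sample spread only, and part of that spread may be technical. The sex-linked genes described below show that the SOD1 samples do not all come from the same animals.

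Glycolysis splits glucose into pyruvate in the cytosol, and lactate dehydrogenase interconverts pyruvate and lactate, which crosses membranes through monocarboxylate transporters. In mitochondria the pyruvate dehydrogenase complex turns pyruvate into acetyl-CoA, which citrate synthase feeds into the citric acid cycle, and the cycle's dehydrogenases supply the respiratory chain with reduced cofactors. Motor neurons have long axons and fire at high rates, and their ATP demand is met mainly by oxidation of glucose and of lactate, part of which astrocytes and oligodendrocytes can supply.

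Markers of the labelled cell type were present at uneven levels. Over 11 motor neuron markers the mean log2 signal was 13.24 to 13.29 on the WT arrays and 12.92 to 13.07 on the SOD1 arrays. Bright genes raised this mean. Over the 6 arrays Nefl, Nefm, Nefh and Prph averaged 16.03 to 17.4 and Isl1 15.16, but Chat, Isl2 and Slc5a7 9.23 to 9.87. Of the 10 tested 0 passed, 7 were lower in SOD1 and 3 higher (limma, lowest adjusted p = 0.117). The largest falls (log2, SOD1 minus WT, ± SE) were at Ache, -1.06 ± 0.25, and Slc18a3, -0.996 ± 0.25 (adjusted p = 0.131). For both genes every SOD1 array was below WT. The 3 higher were Slc5a7, 0.72 ± 0.44, Isl1, 0.23 ± 0.13 with every SOD1 array above WT, and Nefl, 0.007 ± 0.067. Mnx1, a motor neuron transcription factor gene, was no brighter than background (the 95th percentile of the array's 27 bacterial control probe sets) on 2 of the WT arrays and on all 3 SOD1 arrays. Markers of other cells differed between the genotypes as well. The mean over 14 microglial and myeloid markers was 8.49 to 9.96 in WT and 11.53 to 12.30 in SOD1. All 13 tested were higher in SOD1, and 5 passed (limma, adjusted p under 0.05). Over 10 astrocyte markers the mean was 11.69 to 12.30 and 12.69 to 12.92 (9 of 10 higher, 2 passed). Over 9 oligodendrocyte markers it was 12.54 to 13.14 and 13.49 to 13.68 (9 of 9 higher, 0 passed). Over 12 endothelial and mural markers it was 9.92 to 10.88 and 7.72 to 9.12 (11 of 11 lower, 1 passed). Over 6 markers of other neurons it was 7.45 to 7.96 and 8.11 to 9.57 (5 of 5 higher, 0 passed). The 3 skeletal muscle genes were all below the filter. Among all probe sets tested, 50.5% were lower in SOD1 and 0.185% passed. The enzymes described here are as a set not particular to motor neurons, and the part that the mix of cells has in the values below was not tested. In such samples fewer cells of a type and less RNA per cell cannot be told apart. Xist, the RNA of the inactive X chromosome, read 14.71 and 14.63 (log2 signal) on SOD1 replicates 1 and 2 but 7.33 on SOD1 replicate 3 and 7.27 to 7.75 on the WT arrays, and Eif2s3y, a Y-linked gene, read 5.52 and 7.87 on SOD1 replicates 1 and 2, 13.23 on SOD1 replicate 3 and 11.60 to 11.80 in WT. The SOD1 samples thus differ in sex among themselves, and sex and genotype are partly confounded.

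No enzyme or carrier of the list passed the test between SOD1 and WT. Over all 27022 probe sets tested 50 were called (limma, adjusted p under 0.05), a share of 0.185%, with 17 higher in SOD1 (0.0629%) and 33 lower (0.122%). Of the 67 listed, 0 were called, with a lowest adjusted p of 0.0883, a count that is close to the background share. At an unadjusted p under 0.05 there were 14 of the 67, or 20.9%, against 14.7% of all probe sets, 5 of them higher in SOD1 (background 7.09%) and 9 lower (7.58%). With limma run without a variance trend there were 3 of the 67, against 12% of all probe sets. Leaving out 1 array moved the count over all probe sets to 9 (WT replicate 1), 0 (WT replicate 2, with 9.84% at an unadjusted p under 0.05), 79 (WT replicate 3), 6 (SOD1 replicate 2), 29 (SOD1 replicate 3) or 35 (SOD1 replicate 1), and the count among the listed genes stayed at 0 in each.

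Differences below are on the log2 scale and taken as SOD1 minus WT, with their SE after ± and n = 3 in each genotype, at the lead probe set of a gene, which is the one with the highest mean signal. An amount of 16 was added to each signal before taking log2, which understates the change of weak probe sets, and a signal does not rank one gene's amount against another's. The 67 differences had a median of -0.02, with 32 above and 35 below 0, and ranged from -1.10 to 1.21. Over all probe sets tested the median was -0.0065. By role, the medians were 0.19 over 4 probe sets of the carriers, -0.17 over 17 of upper glycolysis, -0.02 over 6 of lower glycolysis, -0.02 over 5 of lactate dehydrogenase, 0.19 over 11 of the pyruvate dehydrogenase complex and its kinase and -0.07 over 24 of the citric acid cycle. These medians moved with the scaling of the arrays: as deposited they were, in that order, 0.27, -0.04, 0.15, 0.15, 0.24 and 0.03, and with each array centred on its median 0.37, 0.07, 0.25, 0.26, 0.35 and 0.14, so that only those of the carriers and of the pyruvate dehydrogenase complex had the same sign in all 3. With 1 array left out the median of the pyruvate dehydrogenase complex ran from 0.05 to 0.30 and that of the carriers from 0.12 to 0.28. The carrier median rests on 2 genes. It was -0.06 with the filter on low signal at the 60th percentile and 0.47 with no filter. The median signal of the 30 leads was at the 97.4th percentile of the probe sets tested, and the median SE of the 30 leads was 0.125, against 0.375 over all probe sets tested. The 95% interval of the difference lay within -0.5 to 0.5 for 15 of the 30 leads and within -1 to 1 for 27. These intervals hold after quantile normalisation and do not cover the choice of scaling.

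**Figure D1:**
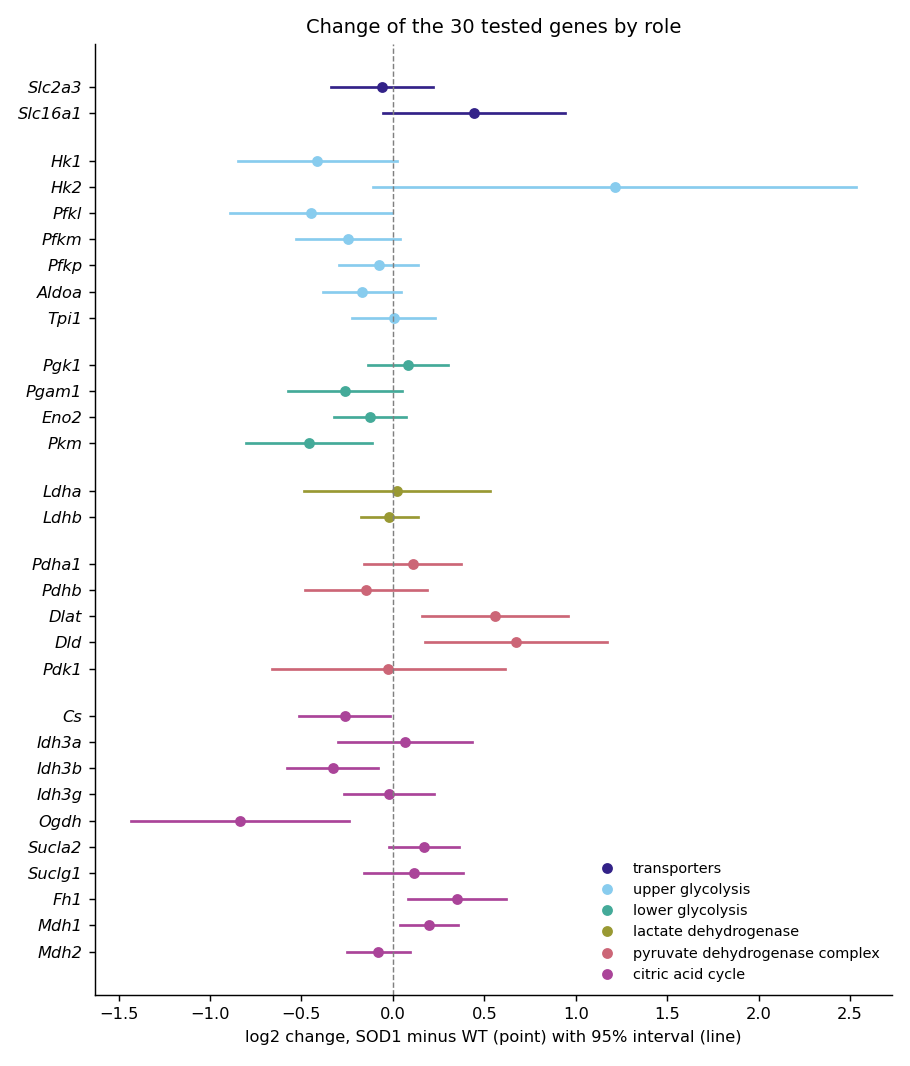
Log2 change between SOD1 and WT (point) with its 95% interval from limma (line, n = 3 arrays per group) for the lead probe set of each of the 30 tested genes, coloured by role. Most points lie within 0.5 of 0; Hk2 has the widest interval, Dlat and Dld are the highest apart from Hk2, and Ogdh is the lowest.

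Of the carriers, Slc2a3, the main glucose transporter of neurons (GLUT3), read 15.05, 14.96 and 14.97 on WT replicates 1 to 3 and 14.95, 15.05 and 14.81 on the SOD1 replicates (log2 signal). The groups overlapped, and the difference was -0.06 ± 0.13 (limma, adjusted p = 0.866). Slc16a1, which encodes the monocarboxylate transporter MCT1 that carries lactate and is abundant in oligodendrocytes and endothelium, read 14.37, 13.91 and 14.26 in WT and 14.09, 14.80 and 14.97 in SOD1. SOD1 replicates 2 and 3 were above every WT array and SOD1 replicate 1 was not, and the difference was 0.44 ± 0.23 (adjusted p = 0.392, 95% interval -0.05 to 0.94). It was 0.27 without SOD1 replicate 3 and 0.70 without SOD1 replicate 1, and 0.79 with a term for Xist, which compares SOD1 replicate 3 with WT.

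In upper glycolysis the leads of Hk1, Pfkl and Pfkm lay lower on every SOD1 array than on any WT array, without passing the test. Hk1, the hexokinase of brain that binds mitochondria, read 13.90, 14.18 and 13.90 in WT and 13.83, 13.23 and 13.67 in SOD1. No SOD1 array reached the lowest WT array, and the difference was -0.41 ± 0.20 (limma, adjusted p = 0.363), or -0.24 without SOD1 replicate 2. A second, dim Hk1 probe set was at 0.55 ± 0.54, and the mean of both was at 0.07. Hk2, the insulin-responsive hexokinase of muscle, was dim and scattered, at 9.40, 8.23 and 7.42 in WT and 8.80, 10.58 and 9.31 in SOD1, with overlapping groups and a difference of 1.21 ± 0.60 (adjusted p = 0.379). It was 0.72 without SOD1 replicate 2 and 0.74 without WT replicate 3.

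Phosphofructokinase, the main control point of glycolysis, has a liver-type, a muscle-type and a platelet-type subunit, and all of them are made in brain. Pfkl, the liver-type subunit, read 12.88, 13.11 and 12.96 in WT and 12.61, 12.58 and 12.40 in SOD1, a difference of -0.45 ± 0.20 or 1.36-fold (limma, adjusted p = 0.335, unadjusted p = 0.0470). Pfkm, the muscle-type subunit, read 14.87, 15.09 and 14.93 in WT and 14.71, 14.70 and 14.74 in SOD1, a difference of -0.24 ± 0.13 (adjusted p = 0.411). For both genes all SOD1 arrays were below all WT arrays. Pfkp, the platelet-type subunit, read 15.86, 15.95 and 15.96 against 15.88, 15.85 and 15.81, with overlap and a difference of -0.08 ± 0.10 (adjusted p = 0.751) that was 0.15 with median centring of the arrays. Its 95% interval after quantile normalisation, -0.29 to 0.14, was narrower than those of the other subunits. The value with median centring lay outside it.

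Below phosphofructokinase, Aldoa, the aldolase that splits fructose bisphosphate, was read by 5 probe sets that all had a negative difference, from -0.08 to -0.32. Its lead was at -0.17 ± 0.10 (limma, adjusted p = 0.446) and at 0.09 with median centring, and the values of WT replicate 1 (16.79) and SOD1 replicate 1 (16.89) crossed. Tpi1, triose phosphate isomerase, had its lead at 16.74, 16.88 and 16.79 in WT and 16.68, 16.71 and 17.03 in SOD1, and its 95% interval ran from -0.22 to 0.23. With median centring the Tpi1 lead was at 0.28, outside that interval.

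Among the leads of lower glycolysis the largest difference was at the last enzyme. Pkm, pyruvate kinase, which makes pyruvate and ATP, read 15.76, 16.28 and 16.36 in WT and 15.79, 15.74 and 15.50 in SOD1. WT replicate 1 was as low as the SOD1 arrays, and the difference was -0.46 ± 0.16 or 1.37-fold (limma, adjusted p = 0.226, unadjusted p = 0.0139). Pgam1, phosphoglycerate mutase, read 15.64, 15.71 and 15.42 in WT and 15.59, 15.17 and 15.22 in SOD1, with 1 SOD1 array inside the WT range and a difference of -0.26 ± 0.14 (adjusted p = 0.427). Eno2, the neuronal enolase, read 16.71, 16.64 and 16.83 against 16.50, 16.64 and 16.66, a difference of -0.13 ± 0.09 (adjusted p = 0.554; 0.17 with median centring).

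Pgk1, phosphoglycerate kinase, which makes the first ATP of the pathway, was read by 3 probe sets that did not give the same size of change. The lead read 16.15, 16.25 and 16.43 in WT and 16.35, 16.33 and 16.40 in SOD1, a difference of 0.08 ± 0.10 (limma, adjusted p = 0.736), and a second gave 0.15 ± 0.09. The probe set 1439435_x_at, singled out after its values were seen, read 15.39, 15.50 and 14.89 in WT and 15.91, 16.10 and 16.05 in SOD1. Its groups were apart, with a difference of 0.76 ± 0.15 or 1.70-fold and the lowest adjusted p of the list, 0.0883. It passed with median centring of the arrays (0.98, adjusted p = 0.0483) and with a stricter filter on signal (0.76, adjusted p = 0.0456), and its adjusted p was 0.0654 with values as deposited. An identifier ending in _x_at marks a probe set whose probes can match other transcripts. The leads of Aldoa, Ldhb and Mdh1 are also of this kind. Pgk1 lies on the X chromosome, and with a term for Xist the probe set was at 0.80 (adjusted p = 0.166), SOD1 replicate 3 being as high as the others.

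Gapdh, the glycolytic dehydrogenase often used as a reference, was present only as the control probe sets at the 3' end, the middle and the 5' end of its transcript. The 3' set read 16.98, 17.10 and 17.17 in WT and 17.00, 17.04 and 16.88 in SOD1 (17.08 ± 0.09 and 16.97 ± 0.08, SD, n = 3), with overlapping groups. The 5' set read 12.30, 13.58 and 13.89 in WT and 13.56, 13.34 and 13.58 in SOD1. WT replicate 1 was thus the lowest at the 5' end, as it was among the WT arrays for the leads of Pkm, Aldoa and Ldha. For other leads, such as Slc2a3, Slc16a1, Hk2, Pdhb, Cs and Mdh2, it was the highest WT array. Of all 6 arrays it was the lowest for 5 of the 30 leads and the highest for 3. The part of transcript coverage in these values was not tested.

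Neither subunit of lactate dehydrogenase passed the test, and only for Ldhb was the interval narrow. Ldhb, the heart-type subunit, read 17.17, 17.16 and 17.24 in WT and 17.20, 17.14 and 17.16 in SOD1, and its difference of -0.02 ± 0.07 (limma, adjusted p = 0.923) had a 95% interval of -0.18 to 0.14, the narrowest of the 30 leads. Its other 3 probe sets gave -0.03, 0.05 and -0.02. With median centring the Ldhb lead was at 0.25, outside that interval. Ldha, the muscle-type subunit, read 14.66, 14.81 and 15.22 in WT and 15.27, 15.12 and 14.36 in SOD1. SOD1 replicate 3 was the lowest of all arrays and SOD1 replicate 1 the highest, and the difference of 0.02 ± 0.23 (adjusted p = 0.976) had an interval of -0.49 to 0.53 and does not show that the level was the same.

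Within the pyruvate dehydrogenase complex, the leads of Dlat and Dld read higher on every SOD1 array than in WT. Those of Pdha1 and Pdhb did not. Dlat, the acetyltransferase core, read 14.08, 13.82 and 14.29 in WT and 14.48, 14.91 and 14.47 in SOD1, a difference of 0.56 ± 0.18 or 1.47-fold (limma, adjusted p = 0.204, unadjusted p = 0.0102). Its other probe sets gave 0.31 ± 0.18, also without overlap, and 0.09 ± 0.19, with overlap. Dld, the dihydrolipoamide dehydrogenase that this complex shares with the 2-oxoglutarate dehydrogenase complex, read 12.82, 12.79 and 12.77 in WT and 13.24, 13.23 and 13.93 in SOD1. All SOD1 arrays were above WT, SOD1 replicate 3 the most, and the difference was 0.67 ± 0.23 or 1.60-fold (adjusted p = 0.217, unadjusted p = 0.0125). Without SOD1 replicate 3 the Dld difference was 0.44, and with a term for Xist, which leaves SOD1 replicate 3 against WT, it was 1.14 (adjusted p = 0.108).

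Pdha1 and Pdhb, the alpha and beta chains of the pyruvate-decarboxylating subunit, were at 0.11 ± 0.12 and -0.15 ± 0.15. Pdhb was uneven among the SOD1 arrays, at 16.26 and 16.20 on replicates 1 and 2 and 16.83 on replicate 3, against 16.50 to 16.70 in WT. Pdk1, a kinase that switches the complex off, was at -0.03 ± 0.29, with a 95% interval of -0.66 to 0.61. Its other tested probe sets, somewhat dimmer, were at 0.43 ± 0.30 and 0.47 ± 0.45, with overlapping groups. Pdhx, a further subunit of the complex from outside the list, was at 0.04 ± 0.27 with overlapping groups. Whether Dlat and Dld differ from the other subunits was not tested.

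In the citric acid cycle the differences went both ways. Ogdh, the first subunit of the 2-oxoglutarate dehydrogenase complex, had the largest, at 13.16, 13.54 and 13.47 in WT and 13.17, 12.20 and 12.29 in SOD1. SOD1 replicates 2 and 3 were below all WT arrays and SOD1 replicate 1 was inside the WT range, and the difference was -0.84 ± 0.27 or 1.78-fold (limma, adjusted p = 0.204, unadjusted p = 0.0103). The other Ogdh probe set was at -0.62 ± 0.41. The Ogdh lead was at -0.66 without SOD1 replicate 2 and at -1.14 without SOD1 replicate 1.

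Cs, citrate synthase, the entry step of the cycle, read 16.29, 16.22 and 16.18 in WT and 16.14, 16.001 and 15.76 in SOD1, a difference of -0.26 ± 0.11 (limma, adjusted p = 0.317). A second bright probe set gave -0.37 ± 0.14 and a dimmer one 0.01 ± 0.22. Idh3b, a subunit of the NAD-dependent isocitrate dehydrogenase, read 15.75, 15.88 and 15.80 in WT and 15.62, 15.47 and 15.36 in SOD1, a difference of -0.33 ± 0.11 (adjusted p = 0.228), and its second probe set gave -0.15 ± 0.12. For both leads all SOD1 arrays were below WT. The other subunits of that enzyme were at 0.07 ± 0.17 (Idh3a, the catalytic one) and -0.02 ± 0.11 (Idh3g), although a dimmer Idh3a probe set gave -0.92 ± 0.37 (adjusted p = 0.290).

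Later in the cycle, Fh1, fumarase, read 15.21, 15.22 and 15.44 in WT and 15.63, 15.77 and 15.52 in SOD1, a difference of 0.35 ± 0.12 (limma, adjusted p = 0.232). Mdh1, the cytosolic malate dehydrogenase of the malate-aspartate shuttle, read 16.92, 16.97 and 16.97 in WT and 17.16, 17.16 and 17.14 in SOD1, a difference of 0.20 ± 0.07 (adjusted p = 0.245). Both leads had every SOD1 array above WT. The other bright Mdh1 probe sets gave 0.10 ± 0.09, with overlap, and 0.09 ± 0.08, without overlap. Mdh2, the mitochondrial counterpart of Mdh1, was at -0.08 ± 0.08 with every SOD1 array below WT, and at 0.22 with median centring. The succinyl-CoA ligase subunits were at 0.17 ± 0.09 (Sucla2, with every SOD1 array above WT) and 0.11 ± 0.12 (Suclg1). Among all 67 probe sets the groups did not overlap for 16, 8 with SOD1 above (10.5% of all probe sets tested) and 8 with SOD1 below (9.81%), and over all probe sets tested the groups were apart for 20.3%. Pdha1 and Idh3g lie on the X chromosome, and with a term for Xist they were at 0.0089 and 0.13.

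**Figure D2:**
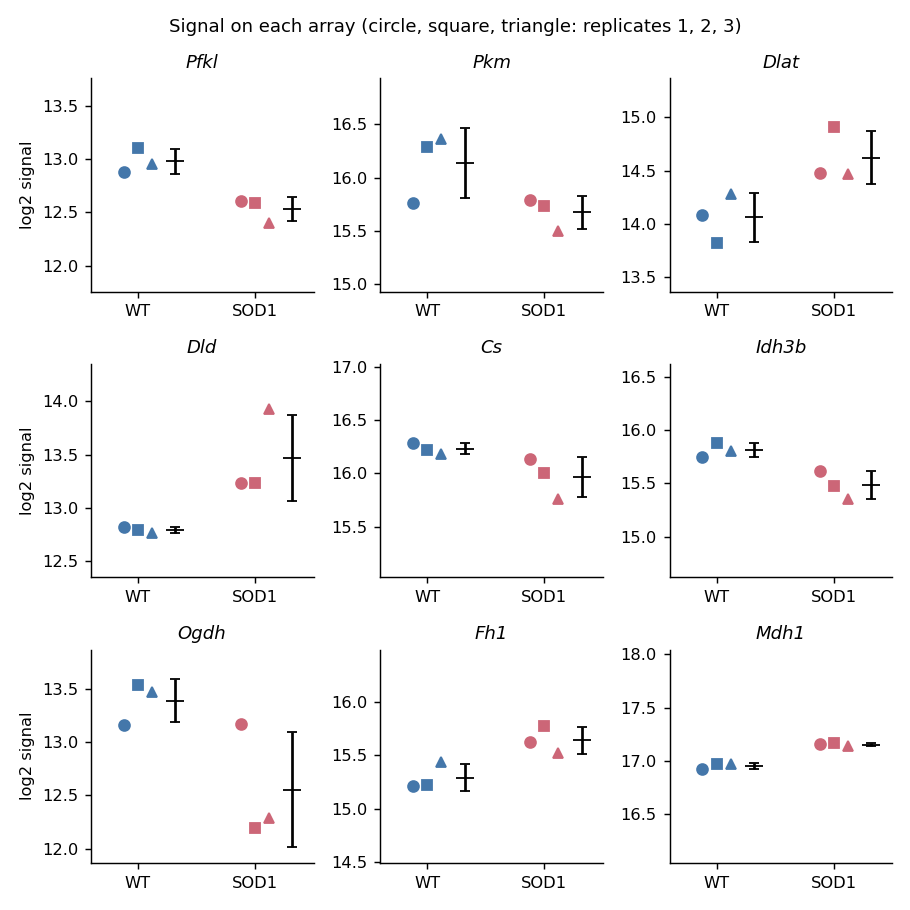
Log2 signal on each array for the 9 genes whose lead probe set had an unadjusted p under 0.05, with WT in blue, SOD1 in red, replicates 1, 2 and 3 as circle, square and triangle, and the mean ± SD (n = 3) as a bar at the right of each group. Each panel spans the same height of 2 log2 units. Only Pkm and Ogdh overlap between the groups, Pkm through WT replicate 1 and Ogdh through SOD1 replicate 1. The 9 were chosen by a small p on these arrays, which favours groups that are apart. Of all probe sets tested, 14.7% had an unadjusted p under 0.05 (limma) and 20.3% had groups that were apart.

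Probe sets of the same gene gave the same sign mostly where the signal was strong. Of 37 further probe sets tested beside the leads, 24 had the sign of their lead. At a mean log2 signal of 13 or more this held for 17 of 19 (median SE 0.102), and under 13 for 7 of 18 (median SE 0.429). The value of 13 was chosen after the values were seen. Of the 14 differences outside -0.5 to 0.5, 11 came from probe sets under 13, such as Hk2, a dim Pfkl probe set at -1.10 ± 0.73 and one of Mdh1 at -0.81 ± 0.52.

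**Figure D3:**
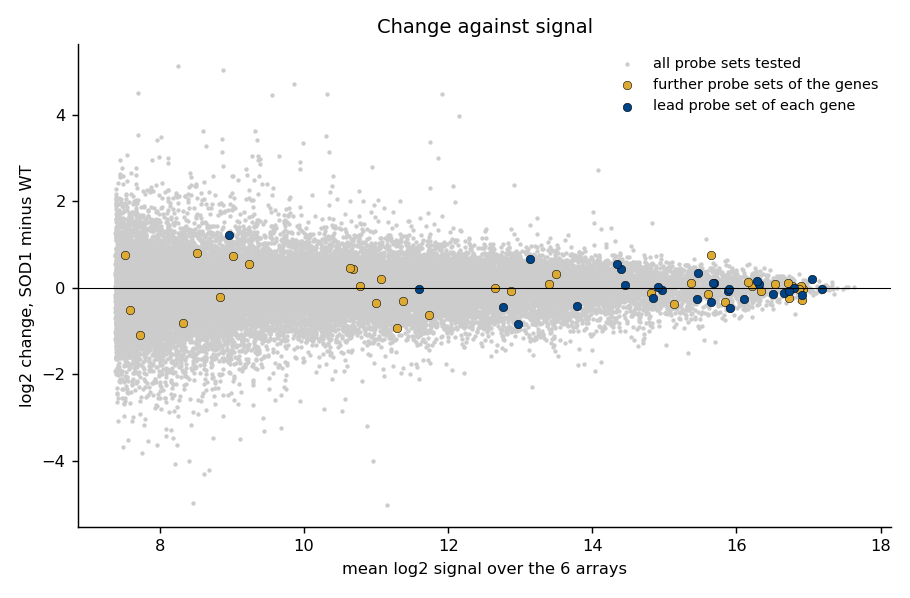
Log2 change between SOD1 and WT against the mean log2 signal over the 6 arrays, for all 27022 probe sets tested (grey), the lead probe sets of the 30 genes (blue) and their 37 further probe sets (yellow). The scatter of all probe sets narrows to the right, where most leads lie.

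The sign of the small differences rested on how the arrays were scaled. With values as deposited the median over the 67 probe sets was 0.09, with 27 (40.3%) below 0, and with median centring 0.20, with 20 (29.9%) below 0, in place of -0.02 and 35 (52.2%) after quantile normalisation. Over the 698 probe sets at least as bright as the median lead, the median moved alike, from 0.02 to 0.17 and 0.28. Under all 3 scalings 13 leads were higher in SOD1, among them Dlat, Dld, Fh1, Mdh1 and Slc16a1, and 8 were lower, among them Ogdh, Pkm, Pfkl, Hk1, Cs and Idh3b. The remaining 9 turned sign, among them Ldhb, Eno2, Aldoa and Mdh2. Ogdh stayed between -0.77 and -0.87 and Dlat between 0.56 and 0.71, whereas Cs was at -0.03 and Pkm at -0.22 with median centring, and Mdh1 was at 0.46.

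**Figure D4:**
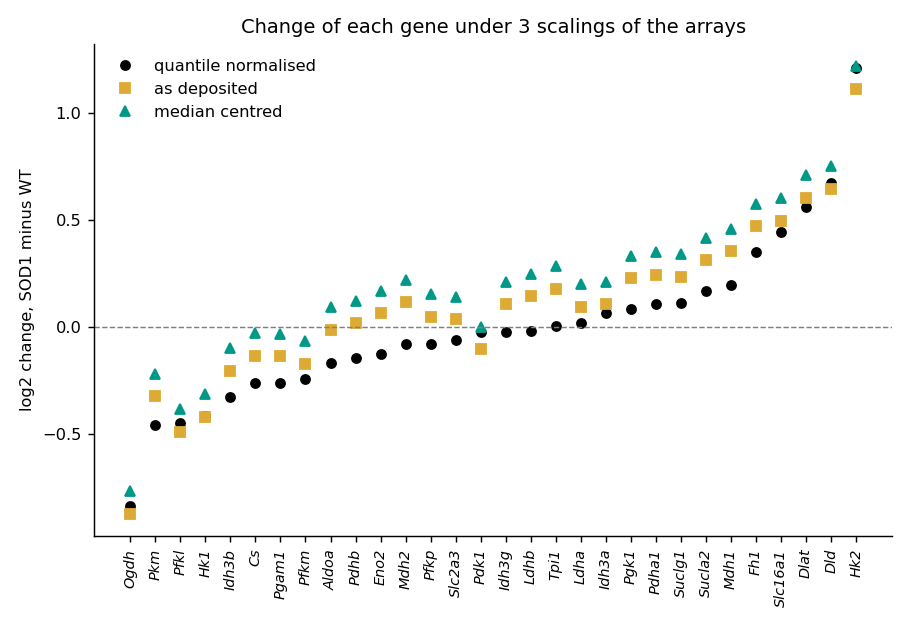
Log2 change between SOD1 and WT of the lead probe set of each of the 30 genes after quantile normalisation (circles), as deposited (squares) and after median centring (triangles), ordered by the first. Hk2, Ogdh, Dlat and Dld keep their sign with differences beyond 0.5 in each, and genes in the middle change sign.

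Of 49 further genes of glucose, pyruvate and citrate metabolism, 43 had a probe set and 38 were tested, by 76 probe sets of which 0 were called by limma (lowest adjusted p = 0.107) and 10, or 13.2%, had an unadjusted p under 0.05. Hif1a, the oxygen-regulated transcription factor subunit that induces many glycolytic genes, had the smallest p, at 13.06, 13.08 and 13.23 in WT and 13.80, 13.87 and 14.14 in SOD1, a difference of 0.81 ± 0.18 (adjusted p = 0.107). A second Hif1a probe set gave 0.49 ± 0.23, with a term for Xist the lead was at 1.02, and with the gene's probe sets averaged the difference was 0.22. Idh1, the cytosolic NADP-dependent isocitrate dehydrogenase, was at 0.53 ± 0.14, Suclg2 at 0.68 ± 0.26, Bpgm, which makes bisphosphoglycerate, at 0.59 ± 0.23, and Mpc1, a subunit of the mitochondrial pyruvate carrier, at 0.40 ± 0.16. For Mpc1 SOD1 replicate 3 read 15.99 against 15.43 and 15.35 on the other SOD1 arrays and 15.17 to 15.24 in WT; without it the difference was 0.20, and with a term for Xist 0.80 (limma, adjusted p = 0.0848). Pgd of the pentose phosphate pathway was at -0.34 ± 0.15, or -0.22 without SOD1 replicate 3. Aldoc, an aldolase abundant in astrocytes, had a lead at -0.20 ± 0.10 and a second probe set, named after its values were seen, at 1.36 ± 0.35.

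Promoter sequence was not used in choosing the genes. Hypoxia-inducible factors bind a core whose letters are ACGTG or, with G in the first place, GCGTG, and Pgk1 and Ldha are textbook targets. The RefSeq promoter table (GRCm38.p6, 250 bases before to 50 after each start) matched 31 of the 33 genes, with 47 windows. On either strand ACGTG was found in 14 of the 31 genes, or 45.2%, against 21.8% of all genes in the table, and in 44.7% of the windows against 19.6% of all windows and 26.4% of those with at least the median GC content of the listed ones (59.7%). GCGTG was in 53.2% of the windows, against 32.4% of all and 58.8% of those at least as rich in GC. Searched likewise, GGGCGG was in 55.3% of the windows (35.7% of all, 79.8% of the GC-rich), CCAAT in 46.8% (37.4% and 31.8%) and TATAAA in 2.13% (13.6% and 3.22%), in Eno2 alone. The GC-rich set leaves out windows under 59.7% GC, whereas the listed windows include such windows, so they are not matched in GC. The windows of 1 gene overlap in part, and the shares are descriptions with no test. The 250 bases before the start are printed for 2 textbook targets and for Ogdh, Dld and Dlat, the 3 largest lead differences apart from Hk2, 5' to 3' on the gene's strand, from the first window where a gene has several. Capitals mark both cores on either strand, and adjoining or overlapping matches run together.
Pgk1, chrX:106186850-106187099, plus strand: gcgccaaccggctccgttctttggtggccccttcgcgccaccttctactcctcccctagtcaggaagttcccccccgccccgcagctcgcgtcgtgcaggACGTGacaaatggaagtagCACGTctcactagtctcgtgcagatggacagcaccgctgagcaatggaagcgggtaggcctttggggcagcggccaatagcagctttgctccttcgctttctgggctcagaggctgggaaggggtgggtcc
Ldha, chr7:46845554-46845803, plus strand: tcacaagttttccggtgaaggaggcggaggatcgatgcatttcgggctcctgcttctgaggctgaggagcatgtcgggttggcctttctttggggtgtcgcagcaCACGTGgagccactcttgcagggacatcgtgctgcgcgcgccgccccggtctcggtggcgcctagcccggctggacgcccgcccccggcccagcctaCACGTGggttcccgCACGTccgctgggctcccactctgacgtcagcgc
Dlat, chr9:50659781-50660030, minus strand: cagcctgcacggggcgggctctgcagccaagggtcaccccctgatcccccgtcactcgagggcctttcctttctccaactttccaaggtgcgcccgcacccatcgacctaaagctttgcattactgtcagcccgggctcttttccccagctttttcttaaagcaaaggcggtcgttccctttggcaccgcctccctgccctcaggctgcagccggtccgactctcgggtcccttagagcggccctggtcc
Dld, chr12:31351472-31351721, minus strand: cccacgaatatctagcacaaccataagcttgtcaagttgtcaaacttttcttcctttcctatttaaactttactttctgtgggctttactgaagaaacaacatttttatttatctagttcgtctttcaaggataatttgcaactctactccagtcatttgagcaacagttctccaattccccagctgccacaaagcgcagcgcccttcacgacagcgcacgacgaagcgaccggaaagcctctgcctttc
Ogdh, chr11:6291347-6291596, plus strand: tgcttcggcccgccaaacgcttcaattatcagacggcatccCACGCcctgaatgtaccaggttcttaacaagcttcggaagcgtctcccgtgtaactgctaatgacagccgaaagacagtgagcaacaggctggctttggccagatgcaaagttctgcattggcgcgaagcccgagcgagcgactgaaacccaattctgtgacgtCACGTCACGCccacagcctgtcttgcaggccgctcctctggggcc

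Ldha had 5 matches, of which those 145 and 144 bases before the start overlap, as do those 48 and 47 bases before it, and Pgk1 had matches 150 and 131 bases before its start. Ogdh had 3, and these letters are not in the bases printed for Dlat and Dld. A match describes the letters of the window and not a bound site.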

How the data were processed

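Probe set signals of 6 mouse arrays were used. The files as deposited give a linear intensity for every probe set on each array, with the same trimmed mean on all 6; the algorithm behind them is not given in the sources used here, and RNA was amplified in 2 rounds per the labels. Of 45101 probe sets, 64 controls were left out of the tests. Arrays were quantile normalised, 16 was added before log2, and the 27022 whose mean log2 value exceeded the 40th percentile were compared with limma 3.58.1 in R 4.3.3 (lmFit, eBayes with a variance trend, two-sided, Benjamini-Hochberg over all of them, threshold 0.05). The step was tested on simulated data, with independent noise and shifts larger than most of the listed differences. That run does not cover smaller shifts or noise shared between probe sets. The background level was chosen after the data were seen. The genes, lists and settings were chosen with earlier results of these data known. All 33 genes are named; every array's value is given for each lead at an unadjusted p under 0.05, for the 2 smallest p of each role and for isoforms, and of the other pathway genes the 6 with the smallest p are named. The number of arrays limits the precision. Figures were drawn with matplotlib 3.10.9.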

Additional observations from a re-analysis of the deposited data

How the results depend on the processing

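The count of listed probe sets called was 0 in the main setting and in each setting but 3, where it was 1, the Pgk1 probe set 1439435_x_at: median centring, a filter at the 60th percentile and an adjusted p threshold of 0.1. The other pathway genes had 0 in every setting. Over all probe sets, 50 were called, against 87 with a pseudocount of 64, 106 with the stricter filter, 0 without a variance trend, 100 with array weights, 25 without probe sets shared between transcripts, 11 over genes with their probe sets averaged, 191 at a threshold of 0.1, and 0 to 79 with 1 array left out. Without a variance trend 3 of the 67 listed had an unadjusted p under 0.05, against 12% of all probe sets. With the replicate number as a block 76 were called by limma and the lowest adjusted p of the list was 0.0789. Deviations of same-numbered arrays correlated at 0.03, -0.04 and -0.01 across probe sets, so these values show no pairing by number. The labels do not say whether the numbers pair the samples. The median of the list moved by more than the within-group SD of their mean (0.0452) to 0.094 as deposited, 0.20 with median centring, 0.087 without shared probe sets and 0.037 with averaged probe sets, and stayed between -0.04 and -0.01 with 1 array left out.

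Of 37 single results, 633 values over the 19 settings kept their direction and side of the threshold, 2 passed it and 43 turned sign, with adjusted p of at least 0.249 in the latter. As deposited, the turned differences were 0.035 for Slc2a3, 0.047 for Pfkp, 0.064 for Eno2, 0.14 for Ldhb, 0.017 for Pdhb, 0.11 for Idh3g and 0.12 for Mdh2. With median centring they were 0.14, 0.15, 0.17, 0.25, 0.12, 0.21 and 0.22 in that order, 0.092 for Aldoa and 0.00021 for Pdk1. With averaged probe sets they were 0.27 for Slc2a3, 0.068 for Hk1, 0.60 for Pfkp, 0.024 for Pdhb, -0.34 for Idh3a, 0.19 for Idh3b and 0.045 for Idh3g. With array weights Tpi1 was at -0.0093 and Pdk1 at 0.090, and with a term for Xist Ldha was at -0.54, Pdhb at 0.26 and Idh3g at 0.13. With 1 array left out the ranges were -0.11 to 0.068 for Tpi1, -0.16 to 0.29 for Ldha, -0.045 to 0.19 for Idh3a, -0.10 to 0.030 for Idh3g, -0.035 to 0.0047 for Ldhb, -0.17 to 0.25 for Pdk1 and -0.11 to 0.0028 for Slc2a3. The cause was not tested. Dim probe sets such as that of Hk2 limit what can be read.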
